A study of Sus scrofa with 6 samples.

Results

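The genes described here encode the respiratory chain and the ATP synthase of mitochondria, read on arrays of pig back muscle. They were chosen by name, with earlier results of these data known. A probe set counted if its single platform gene symbol began with NDUF, UQCR, ATP5, SDHA to SDHD or COX4 to COX8. The symbols CYC1 and CYCS counted as well. The rule found 83 probe sets of 65 genes, out of 6765 named genes in the series, and the brightest probe set on average stood for a gene that had more than 1. There were 33 subunits of complex I, 4 of complex II, 2 of complex III, 7 of complex IV and 14 genes named for the ATP synthase, plus CYCS and 4 assembly factors. All 65 passed the filter on dim probe sets. CYC1, COX4 and the muscle form COX6A2 were among the names looked for and are not analysed here, nor are the subunits encoded in mitochondrial DNA.

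The samples were longissimus dorsi, the long back muscle, of 3 Northeastern Indigenous boars and, as controls, 3 boars of the Large White breed. All were 150 days old and reared alike, and each animal gave 1 Affymetrix Porcine Genome Array. No treatment or genetic change is given in the labels. Values below are log2 intensities after quantile normalization, differences are Northeastern Indigenous minus Large White, each error is either the SD over 3 arrays or limma's SE, and adjusted p means limma with Benjamini-Hochberg adjustment over 14399 probe sets.

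The respiratory chain passes electrons from NADH (complex I) and succinate (complex II) through coenzyme Q, complex III and cytochrome c to oxygen at complex IV. The protons pumped on the way drive the ATP synthase, often called complex V. Skeletal muscle makes muscle-specific forms of a few small subunits, and oxidative fibres hold more mitochondria than glycolytic ones.

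The 6 arrays were not alike in markers of tissue, and this bears on every breed difference below. The 14 sarcomere genes tested, which mark muscle fibres, lay at a median of -3.25 from the Northeastern Indigenous mean on replicate 1 of Large White, against -0.03 on replicate 2 and -0.32 on replicate 3. DES, the muscle filament desmin, read 7.26, 13.23 and 11.59 on these 3 arrays and between 12.91 and 13.63 on the others. Of 12 adipocyte markers 7 had a named probe set and 5 were tested. Their median distance from that mean was 6.08 on replicate 1 of Large White, 4.78 on replicate 3 and -0.12 on replicate 2. Large White arrays had a log2 summed intensity of these markers from 12.01 to 15.47, and Northeastern Indigenous arrays from 11.90 to 12.54. ADIPOQ, the fat-cell hormone adiponectin, read 13.64, 7.22 and 12.50 in Large White and between 6.73 and 8.29 in the other breed. All 8 leukocyte markers tested had negative differences, with medians of 2.09, 0.82 and 2.22 on Large White replicates 1, 2 and 3. For the 7 fibroblast markers these medians were 2.07, 0.56 and 1.55. The 8 slow fibre markers tested had medians of -4.42, -0.16 and -0.34 on the same arrays, with 7 positive differences and TPM3 at -1.45. The 6 fast fibre markers tested, some of them also in the sarcomere list, had medians of -2.51, 0.03 and -0.17, with 6 positive differences. Values against Large White replicate 2 alone, where the adipocyte and sarcomere medians lay near 0, and a fit with the adipocyte minus sarcomere score as a covariate are given below. The part of the leukocyte, fibroblast and slow fibre markers was not tested.

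Respiratory chain and ATP synthase genes were brighter in Northeastern Indigenous boars. Of 65 genes, 64 had a positive difference, against 55.8% of all probe sets tested, and the median was 0.71 log2 units against 0.10 over all probe sets tested. COX6A1 was the exception. Without quantile normalization the medians were 0.90 for these genes and -0.003 for all probe sets. With arrays centred on their medians they were 1.04 and 0.14, a shift of whole arrays that moves every deposited difference alike. Quantile normalization moved genes unequally: SDHD differed by 0.21 with it and 0.57 as deposited, and NDUFAF2 by 0.33 and 0.14. After quantile normalization the breeds did not overlap in 49 genes, with Northeastern Indigenous higher, against 14.2% of all probe sets. Of these 49, ATP5B, ATP5E, COX6C, NDUFAB1, NDUFS5 and NDUFV2 overlapped with intensities as deposited, because Large White replicate 2 was not below every Northeastern Indigenous array. None of the 65 passed the adjusted threshold of 0.05 in limma, and 0% of all probe sets passed it. The smallest adjusted p among the 65 genes was 0.224 (limma). At an unadjusted p under 0.05 limma counted 38 genes higher, against 8.82% of all probe sets, and 1 lower, against 9.97%.

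Each Large White array lay below the Northeastern Indigenous arrays, by different amounts. Set against the mean of the latter, the median over the 65 genes was -1.0 for replicate 1 of Large White, -0.31 for replicate 2 and -0.70 for replicate 3. It lay between -0.03 and 0.03 for the 3 Northeastern Indigenous arrays. Replicate 1 was below every Northeastern Indigenous array in 60 genes (42.7% of all probe sets), replicate 3 in 62 (42.7%) and replicate 2 in 53 (30.0%). Replicate 2 is the Large White array with low adipocyte and high muscle markers. With intensities as deposited, without quantile normalization, it was below every Northeastern Indigenous array in 47 genes (29.1% of all probe sets) and its median was -0.25. The Northeastern Indigenous arrays were close to each other, with a median SD of 0.09 per gene against 0.42 in Large White, and the SD was larger in Large White for 62 of 65 genes. Over all probe sets tested the median SDs were 0.27 and 0.49. Neither these SDs nor the shares over all probe sets were matched for brightness, and 60 of the 65 genes lay above the 90th percentile of brightness. In whole muscle, fewer fibres or mitochondria and less of these RNAs per fibre cannot be told apart.

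**Figure D1:**
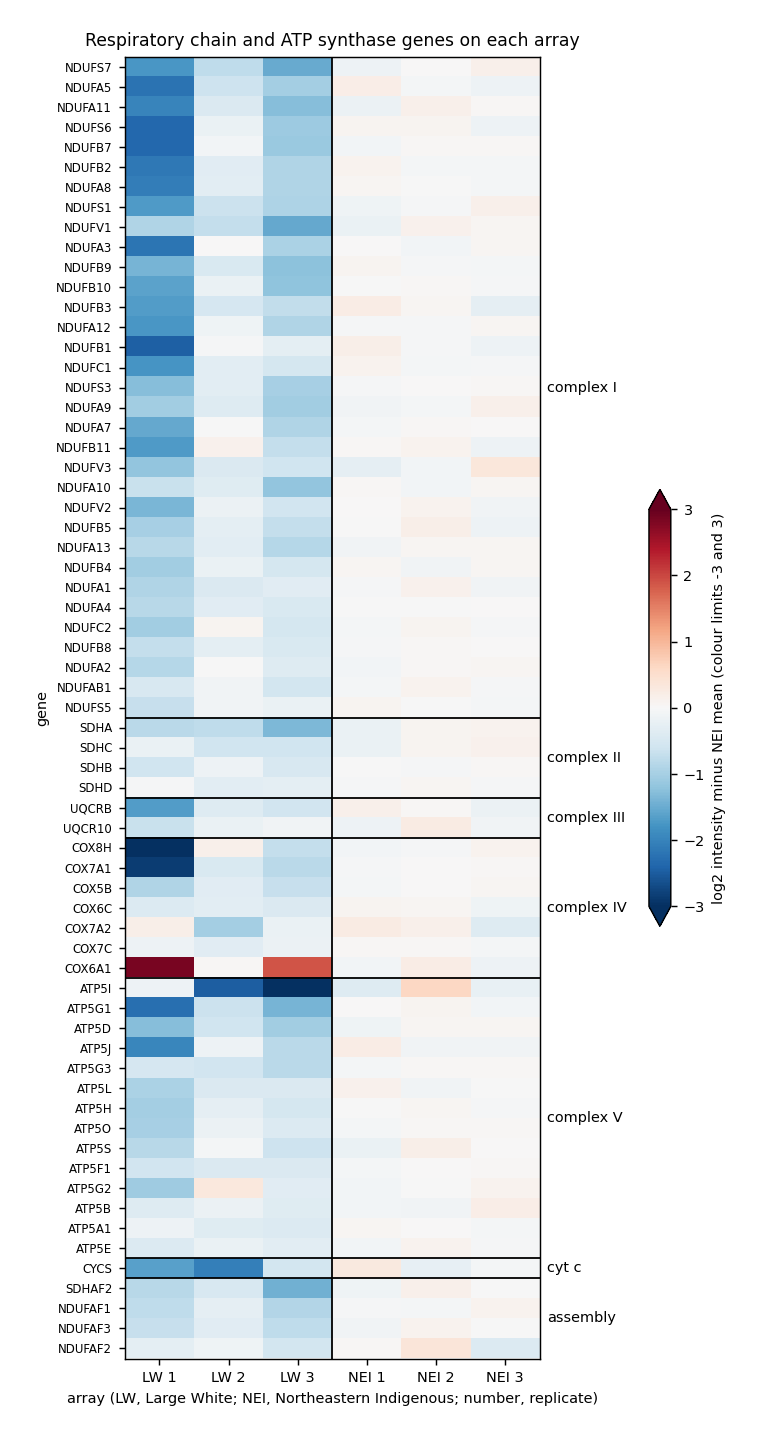
Log2 intensity of each of the 65 genes (rows, grouped by complex) on each of the 6 arrays (columns), minus the gene's mean over the 3 Northeastern Indigenous arrays; colours are limited at -3 and 3. Large White replicate 1 is the bluest column, with a median of -1.0, replicate 2 is nearer to 0 at -0.31, and COX6A1 stands out in red on Large White replicates 1 and 3.

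The threshold depended on 1 array. Without Large White replicate 2, limma called 45 of the 65 genes higher in Northeastern Indigenous boars, against 15.4% of all probe sets, and COX6A1 lower, against 15.3%. That comparison sets the 2 Large White arrays with bright adipocyte markers against the Northeastern Indigenous arrays. Without Large White replicates 1 and 3 together, 59 of 65 differences were positive and the median was 0.31. Over all probe sets tested, replicate 2 lay at a median of 0.007 above the Northeastern Indigenous mean. The share of positive differences over all probe sets is not given for this setting or for the fit that follows. In a fit with the adipocyte minus sarcomere score of each array as a covariate, 58 differences were positive, the median was 0.31 and 0 genes were called. The score was 0.97, -7.40 and -3.13 on Large White replicates 1, 2 and 3 and from -8.05 to -6.90 on the Northeastern Indigenous arrays. Only replicate 2 fell in that range, so this fit is not a check separate from the comparison with replicate 2. Complex medians in that fit were 0.28, 0.52, 0.17, 0.32 and 0.28 for complexes I, II, III, IV and V.

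Complex I, which oxidizes NADH, had the largest median of the 5 complexes over all 6 arrays, and complex II the largest against Large White replicate 2 alone and with the covariate. All 33 subunits had positive differences, from 0.34 to 1.34 with a median of 0.86, and 26 did not overlap between breeds, against 14.2% of all probe sets. Without Large White replicate 1 the median was 0.52. Large White replicates 1, 2 and 3 had complex I medians of -1.40, -0.31 and -0.90. The 12 subunits of the matrix arm, where NADH is oxidized, had a median of 0.89, and the 20 of the membrane arm, which pumps protons, a median of 0.82. NDUFA4, named for complex I and since found to belong to complex IV, was left with its name and differed by 0.54 ± 0.16 (SE).

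NDUFS7 carries the iron-sulfur cluster that hands electrons to coenzyme Q, and it had the smallest unadjusted p of the 65 genes. It read 11.59, 12.57 and 11.82 on Large White replicates 1, 2 and 3 and 13.17, 13.35 and 13.48 on the Northeastern Indigenous arrays. The lowest Northeastern Indigenous array was above the highest Large White array, and the difference was 1.34 ± 0.28 (SE; adjusted p = 0.224, limma). Against Large White replicate 2 alone it was 0.77.

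NDUFV1, which binds NADH and the flavin, read 10.89, 11.09 and 10.26 in Large White and 11.61, 11.93 and 11.86 in Northeastern Indigenous boars. Here Large White replicate 3, not replicate 1, was the dimmest array, and the difference was 1.05 ± 0.29 (SE; adjusted p = 0.224, limma). NDUFS1, the large iron-sulfur subunit of the matrix arm, read 11.03, 12.09 and 11.80 against 12.61, 12.70 and 12.88. Its difference was 1.09 ± 0.30 (SE), and 0.64 against Large White replicate 2. NDUFB9, an accessory subunit of the membrane arm, read 12.37, 13.30 and 12.53 against 13.86, 13.74 and 13.71. Its breeds did not overlap either, and its difference was 1.03 ± 0.26 (SE), or 0.47 against replicate 2.

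Some complex I genes were dim on Large White replicate 1 and not on replicate 2. NDUFB1, a small membrane-arm subunit, read 11.42, 13.84 and 13.59 in Large White and 14.05, 13.84 and 13.72 in Northeastern Indigenous boars, so that replicate 1 alone was far below. NDUFA3 and NDUFB7, also of the membrane arm, lay 2.19 and 2.35 below the Northeastern Indigenous mean on replicate 1, and on replicate 2 NDUFA3 was 0.02 above it and NDUFB7 0.07 below. NDUFA3, NDUFB11 and NDUFC2 were the 3 complex I genes with replicate 2 above the Northeastern Indigenous mean. The smallest difference in the complex was that of NDUFS5, an accessory subunit, which read 12.66, 13.24 and 13.14 against 13.44, 13.34 and 13.28. Its breeds were close and did not overlap after quantile normalization, but they overlapped with intensities as deposited. NDUFS5 differed by 0.34 ± 0.20 (SE).

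Complex II, the succinate dehydrogenase that also serves the citric acid cycle, had a median of 0.44, and its 4 genes had positive differences. SDHA, the flavoprotein that oxidizes succinate, read 11.80, 11.85 and 11.27 in Large White and 12.41, 12.69 and 12.70 in Northeastern Indigenous boars. The breeds did not overlap, and the 3 Large White arrays were 0.81, 0.75 and 1.34 below the Northeastern Indigenous mean. The difference was 0.97 ± 0.24 (SE; adjusted p = 0.224, limma), and a second SDHA probe set gave 0.98.

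SDHB, the iron-sulfur subunit, differed by 0.41 ± 0.16 (SE), with a second, dimmer probe set at -0.05. The membrane anchors SDHC and SDHD differed by 0.47 ± 0.21 and 0.21 ± 0.15 (SE). SDHC read 12.60, 12.20 and 12.21 in Large White and 12.61, 12.88 and 12.93 in Northeastern Indigenous boars, so replicate 1 lay nearest to the other breed. In SDHD replicate 1, at 13.86, fell inside the range of 13.85 to 13.95 of the Northeastern Indigenous arrays. The complex II medians on Large White replicates 1, 2 and 3 were -0.39, -0.46 and -0.54, without the wide gap between arrays seen in complex I.

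Complex III was represented by 2 genes, with a median of 0.60, or 0.31 without Large White replicate 1. UQCRB, a subunit near the coenzyme Q site, read 12.77, 14.05 and 13.87 in Large White and 14.59, 14.47 and 14.26 in Northeastern Indigenous boars. All 3 Large White arrays were lower, replicate 1 by the most, and the difference was 0.88 ± 0.33 (SE; adjusted p = 0.246, limma). UQCR10, a small accessory subunit, differed by 0.32 ± 0.21 (SE), and Large White replicate 3 lay within the range of the other breed.

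CYCS, cytochrome c, the soluble carrier between complexes III and IV, was dimmest on Large White replicate 2. It read 11.31, 10.88 and 12.39 in Large White and 13.24, 12.70 and 12.87 in Northeastern Indigenous boars, with no overlap. The difference was 1.41 ± 0.40 (SE; adjusted p = 0.224, limma), and against replicate 2 alone it was 2.05. It had 1 probe set.

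**Figure D2:**
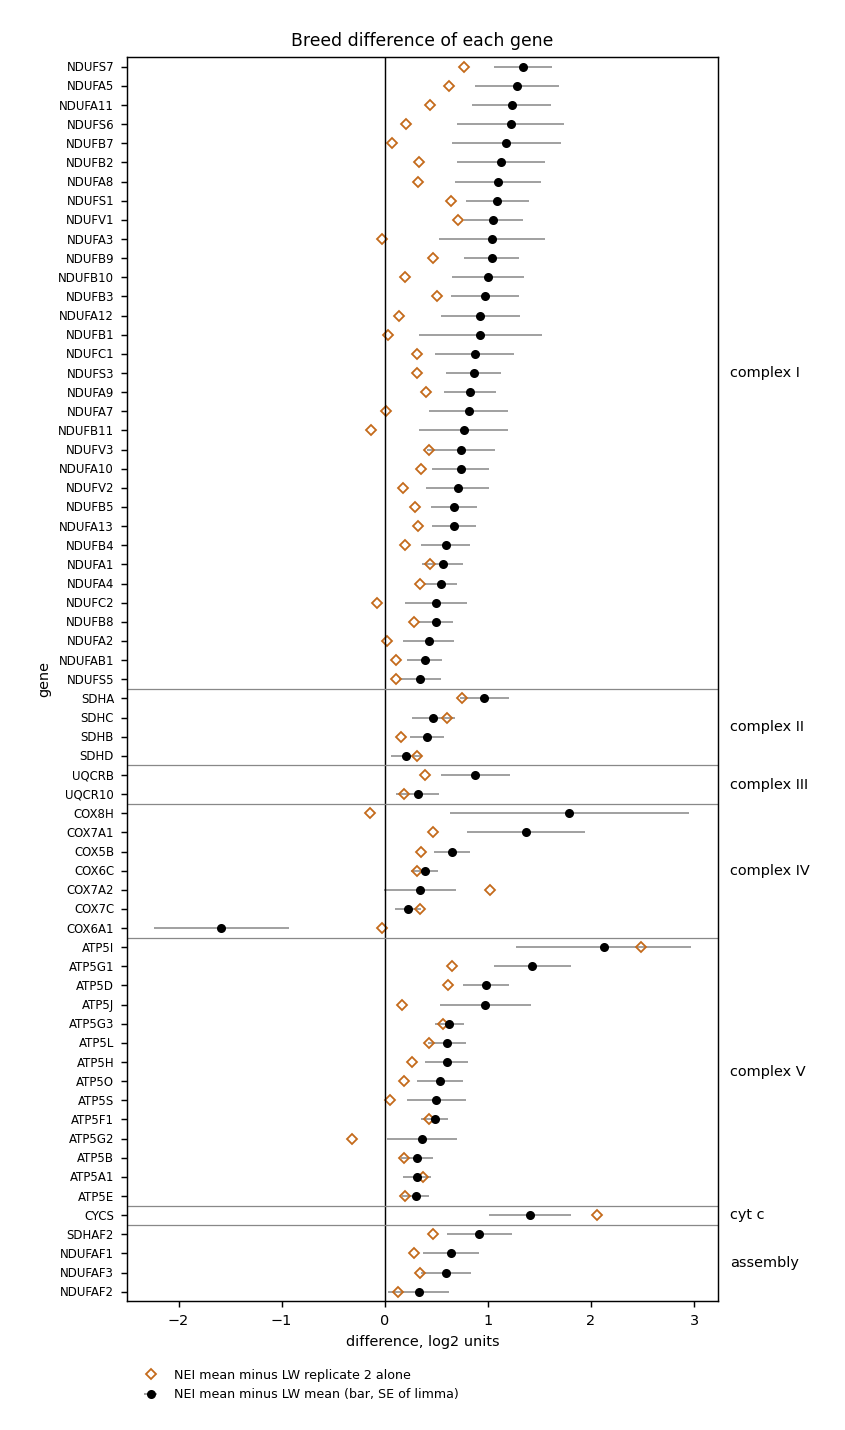
Breed difference of each of the 65 genes in log2 units, Northeastern Indigenous minus Large White (black points, bars are the SE of limma), and the same against Large White replicate 2 alone (open diamonds, 1 array with no error). Of the black points 64 lie right of 0, with COX6A1 at -1.59 the exception, and most diamonds lie nearer to 0, with a median of 0.31.

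Complex IV, cytochrome c oxidase, had the most uneven genes of the 5 complexes, with differences from -1.59 to 1.79 and a median of 0.39. COX5B, a zinc-binding accessory subunit, read 13.54, 14.11 and 13.76 in Large White and 14.39, 14.46 and 14.52 in Northeastern Indigenous boars. The breeds did not overlap, and the difference was 0.65 ± 0.18 (SE; adjusted p = 0.224, limma). The small subunits COX6C and COX7C differed by 0.39 ± 0.13 and 0.23 ± 0.12 (SE), also without overlap. With intensities as deposited, the breeds overlapped in COX6C. A dimmer COX7C probe set gave -0.09.

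The muscle forms of complex IV subunits were far below the other arrays on Large White replicate 1. COX8H, the heart and muscle form of subunit 8, read 9.25, 14.20 and 13.34 in Large White and 13.98, 14.02 and 14.16 in Northeastern Indigenous boars. Large White replicate 1 was 4.80 below the Northeastern Indigenous mean and replicate 2 was 0.14 above it, so the breeds overlapped, and the difference of 1.79 ± 1.15 (SE; adjusted p = 0.383, limma) rested on replicate 1. Without that array it was 0.28. COX7A1, the heart and muscle form of subunit 7A, read 11.44, 13.81 and 13.47 against 14.24, 14.29 and 14.31. All Large White arrays were lower here, and the difference was 1.37 ± 0.57 (SE; adjusted p = 0.262, limma), or 0.64 without replicate 1.

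The forms made in most tissues followed another order. COX6A1, the ubiquitous form of subunit 6A, read 14.01, 11.18 and 13.03 in Large White and 11.08, 11.37 and 11.01 in Northeastern Indigenous boars. It was bright on the same 2 Large White arrays as the adipocyte markers, and replicate 2 fell inside the Northeastern Indigenous range. Its difference was -1.59 ± 0.66 (SE; adjusted p = 0.262, limma) with all arrays, -0.95 without replicate 1 and -0.02 against replicate 2 alone. COX7A2, the ubiquitous form of subunit 7A, read 12.68, 11.48 and 12.31 against 12.75, 12.64 and 12.11, and here replicate 2 was the dimmest. Its difference was 0.34 ± 0.35 (SE).

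The log2 ratio of COX7A1 to COX7A2 within each array was -1.24, 2.33 and 1.16 in Large White and 1.49, 1.64 and 2.20 in Northeastern Indigenous boars. Large White replicate 1 was low and replicate 2 was the highest of the 6 arrays. The breed difference of this ratio was 1.03 (two-sided exact permutation test, n = 3 per breed, p = 0.5; p = 0.5 adjusted over 3 isoform ratios). It was 0.03 without Large White replicate 1 and -0.55 without replicates 1 and 3. With 3 arrays against 3 the smallest p this test can give is 0.1.

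The 14 genes named for the ATP synthase had a median of 0.57. All 14 had positive differences, against 55.8% of all probe sets, and 11 were without overlap, against 14.2%. ATP5S, counted by its name but placed in none of the parts below, differed by 0.50 ± 0.28 (SE). By part of the enzyme, the 4 genes of the F1 head and central stalk had a median of 0.31, the 4 of the peripheral stalk 0.57, the 3 of the membrane c ring 0.63 and the 2 small membrane subunits ATP5I and ATP5L 1.36. ATP5A1 and ATP5B, the alpha and beta subunits that make ATP, differed by 0.31 ± 0.13 and 0.32 ± 0.15 (SE). ATP5D, the delta subunit of the central stalk, read 11.98, 12.66 and 12.21 in Large White and 13.15, 13.32 and 13.32 in Northeastern Indigenous boars. All Large White arrays were lower, and the difference was 0.98 ± 0.22 (SE; adjusted p = 0.224, limma). ATP5E, the epsilon subunit, had the smallest difference of the complex at 0.30 ± 0.13 (SE).

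In the peripheral stalk, ATP5F1, subunit b, was steady within each breed. It read 13.57, 13.71 and 13.70 in Large White and 14.08, 14.16 and 14.18 in Northeastern Indigenous boars. The spread within breeds (SD 0.08 and 0.05, n = 3 each) was small beside the difference of 0.48 ± 0.13 (SE; adjusted p = 0.224, limma). ATP5J, ATP5H and ATP5O, the other stalk genes, differed by 0.98 ± 0.44, 0.60 ± 0.21 and 0.54 ± 0.22 (SE).

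The c ring, which turns as protons pass, is made of identical subunits encoded by ATP5G1, ATP5G2 and ATP5G3, whose products differ only in the import sequence that is cut off. ATP5G1 read 11.98, 13.58 and 12.85 in Large White and 14.26, 14.31 and 14.14 in Northeastern Indigenous boars. The breeds did not overlap, and the difference was 1.43 ± 0.37 (SE; adjusted p = 0.224, limma). ATP5G3 read 14.08, 14.01 and 13.77 against 14.52, 14.61 and 14.61, a difference of 0.63 ± 0.14 (SE; adjusted p = 0.224, limma). ATP5G2 read 12.01, 13.38 and 12.73 against 12.99, 13.05 and 13.17, and its difference of 0.36 ± 0.34 (SE) was within the spread of the Large White arrays. Large White replicate 2 was the brightest of the 6 arrays for ATP5G2.

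The log2 ratio of ATP5G1 to ATP5G2 within each array was -0.02, 0.20 and 0.12 in Large White and 1.27, 1.26 and 0.98 in Northeastern Indigenous boars. The ratios did not overlap between breeds. The breed difference was 1.07 (two-sided exact permutation test, p = 0.1, the smallest this design can give; p = 0.3 adjusted over 3 isoform ratios). The ratio of ATP5G1 to ATP5G3 differed by 0.80 (same exact permutation test, p = 0.2, adjusted p = 0.3), with Large White replicate 2 at -0.43 inside the Northeastern Indigenous range of -0.47 to -0.26. That difference was 0.33 without Large White replicate 1 and 0.09 without replicates 1 and 3. Such ratios do not show which gene is more abundant.

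**Figure D3:**
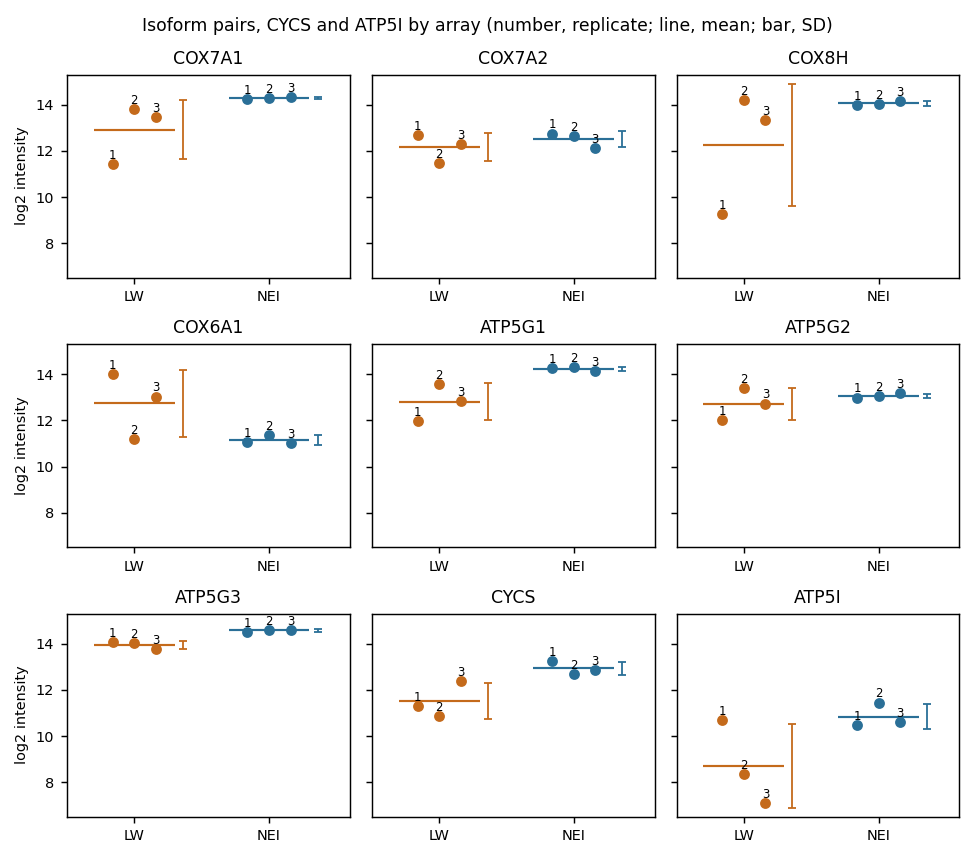
Log2 intensity of subunit forms, CYCS and ATP5I on each array (points, labelled with the replicate number), with the mean (line) and SD (bar) of the 3 arrays of each breed. COX8H falls to 9.25 on Large White replicate 1, COX6A1 is brightest there at 14.01, CYCS is dimmest on Large White replicate 2 at 10.88, and ATP5I is dimmest on Large White replicate 3 at 7.12.

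ATP5I, subunit e, which helps to pair ATP synthases in the membrane, had the largest difference of the 65 genes, with an SD of 1.81 in Large White (n = 3). It read 10.69, 8.37 and 7.12 in Large White and 10.46, 11.46 and 10.62 in Northeastern Indigenous boars. Large White replicate 1 fell inside the range of the other breed while replicates 2 and 3 were 2.48 and 3.73 below its mean. In 45 of the 65 genes, by contrast, replicate 1 was the lowest of the 6 arrays. The difference was 2.12 ± 0.85 (SE; adjusted p = 0.254, limma), and a second ATP5I probe set was too dim to be tested. ATP5L, subunit g of the same membrane region, differed by 0.60 ± 0.19 (SE) without overlap, and its other probe sets gave 0.91 and 1.33.

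Of the 18 probe sets not chosen for a gene, 14 passed the filter and 10 of these had a positive difference. The 4 others were the dimmer probe sets of COX7C, NDUFA1, SDHAF2 and SDHB. A dimmer NDUFA1 probe set gave -2.55 where the chosen one gave 0.56, and a dimmer SDHAF2 probe set gave -1.09 where the chosen one gave 0.92. The pairs of probe sets of NDUFA1 and SDHAF2 disagree in sign, and which one reports the transcript was not tested. Most chosen probe sets were bright: 60 of 65 lay above the 90th percentile of brightness, and the lowest, NDUFV3, at percentile 52.4.

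**Figure D4:**
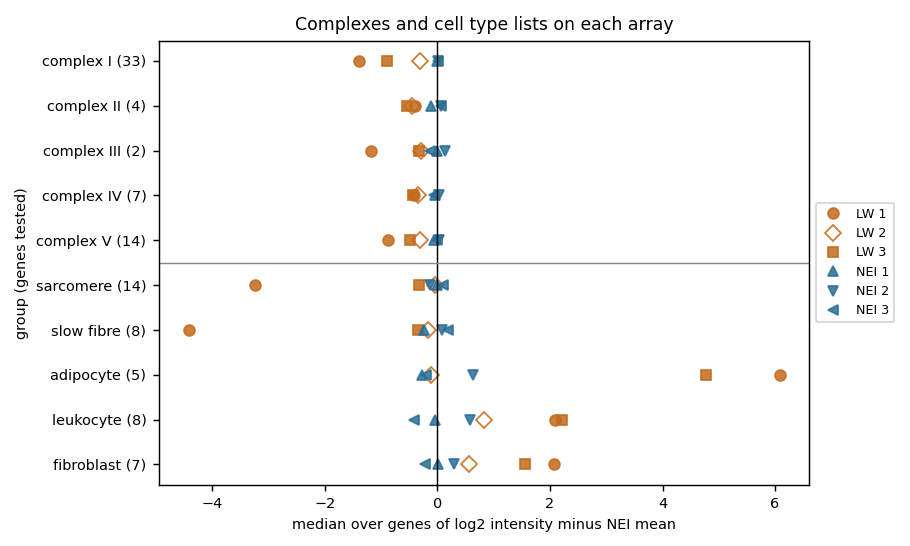
Median over genes of the log2 intensity minus the Northeastern Indigenous mean on each array, for the 5 complexes (top) and 5 marker lists (bottom), with the number of genes tested in brackets. Large White replicate 1 lies at -1.40 for complex I, -3.25 for sarcomere and 6.08 for adipocyte markers, while Large White replicate 2 lies between -0.46 and -0.29 for the complexes and near 0 for sarcomere and adipocyte markers.

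Over all arrays, genes that build the complexes had the same direction. NDUFAF1, NDUFAF2 and NDUFAF3, assembly factors of complex I, and SDHAF2, which helps to attach the flavin to SDHA, differed by 0.64, 0.33, 0.59 and 0.92. Of 48 listed assembly factors, SDHAF2 included, 17 were tested. All 17 had positive differences, with a median of 0.60, against 55.8% of all probe sets. On Large White replicate 2 their median was -0.34 from the Northeastern Indigenous mean. HIGD2A, TMEM126B, SCO2 and FOXRED1 were above that mean on replicate 2, and the others below it. At an unadjusted p under 0.05 limma counted 8 of the 17 higher, against 8.82% of all probe sets, and 0 passed the adjusted threshold. LYRM7, which guards the iron-sulfur protein of complex III, read 6.54, 6.25 and 5.82 in Large White and 7.68, 7.39 and 7.54 in Northeastern Indigenous boars. The breeds did not overlap, and its difference of 1.33 ± 0.30 (SE; adjusted p = 0.224, limma) was 1.28 against Large White replicate 2 alone. HIGD1A, a factor of complex IV and of supercomplexes, differed by 0.57 ± 0.19 (SE), and ECSIT, a complex I factor, by 1.5 ± 0.51 (SE). Against replicate 2 alone these 2 differed by 0.78 and 0.33.

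Coenzyme Q synthesis was measured by 4 of 15 listed genes, and all 4 had positive differences at an unadjusted p under 0.05, against 8.82% of all probe sets, with a median of 0.98 and 0 past the adjusted threshold. COQ5, a methyltransferase of the pathway, read 11.10, 10.48 and 10.60 in Large White and 11.62, 11.87 and 11.80 in Northeastern Indigenous boars. All Large White arrays were lower, replicate 2 by the most, and the difference was 1.04 ± 0.26 (SE; adjusted p = 0.224, limma). COQ9, which binds the lipid intermediates, differed by 1.70 ± 0.44 (SE), or 0.77 against replicate 2. COQ6, a hydroxylase, differed by 0.86 ± 0.31 (SE).

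Among carriers and channels that feed the chain or export its ATP, 14 of 17 listed genes were tested, 12 had positive differences (55.8% of all probe sets), and the median was 0.56. Of these 5 were higher at an unadjusted p under 0.05 (8.82% of all probe sets) and 0 passed the adjusted threshold. VDAC2, a channel of the outer membrane, differed by 0.91 ± 0.22 (SE), ETFA, which delivers electrons from fatty acid oxidation, by 0.58 ± 0.17, and the phosphate carrier SLC25A3 by 0.37 ± 0.11. SLC25A4, the ADP and ATP exchanger of muscle, read 11.98, 14.30 and 13.94 in Large White and 14.67, 14.61 and 14.74 in Northeastern Indigenous boars. Its counterparts in other tissues had negative differences over all arrays. SLC25A5 read 12.36, 9.26 and 11.02 against 9.11, 9.24 and 9.49, bright on Large White replicates 1 and 3 like COX6A1. SLC25A6 differed by -0.54 ± 0.41 (SE). Against Large White replicate 2 alone, SLC25A4, SLC25A5 and SLC25A6 differed by 0.38, 0.02 and 0.33, so the opposite direction was not seen there. CKMT2, the mitochondrial creatine kinase of muscle, read 8.41 on Large White replicate 1 and from 13.05 to 14.10 on the other 5 arrays.

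Regulators of mitochondrial biogenesis were less uniform. Of 24 listed genes 9 were tested, 7 with positive differences (55.8% of all probe sets) and a median of 0.31. At an unadjusted p under 0.05, 2 were higher (8.82% of all probe sets), and 0 passed the adjusted threshold. TFAM, which packages and transcribes mitochondrial DNA, read 10.50, 10.73 and 10.40 in Large White and 11.05, 11.21 and 11.46 in Northeastern Indigenous boars, without overlap, and differed by 0.70 ± 0.24 (SE; adjusted p = 0.233, limma). PPARGC1A, the coactivator of biogenesis, read 4.03, 8.80 and 7.09 against 9.28, 8.94 and 9.84, and the difference was 0.55 against Large White replicate 2. MTERF3, a regulator of mitochondrial transcription, differed by 0.72 ± 0.31 (SE), and TFB1M and PPRC1 had negative differences.

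**Figure D5:**
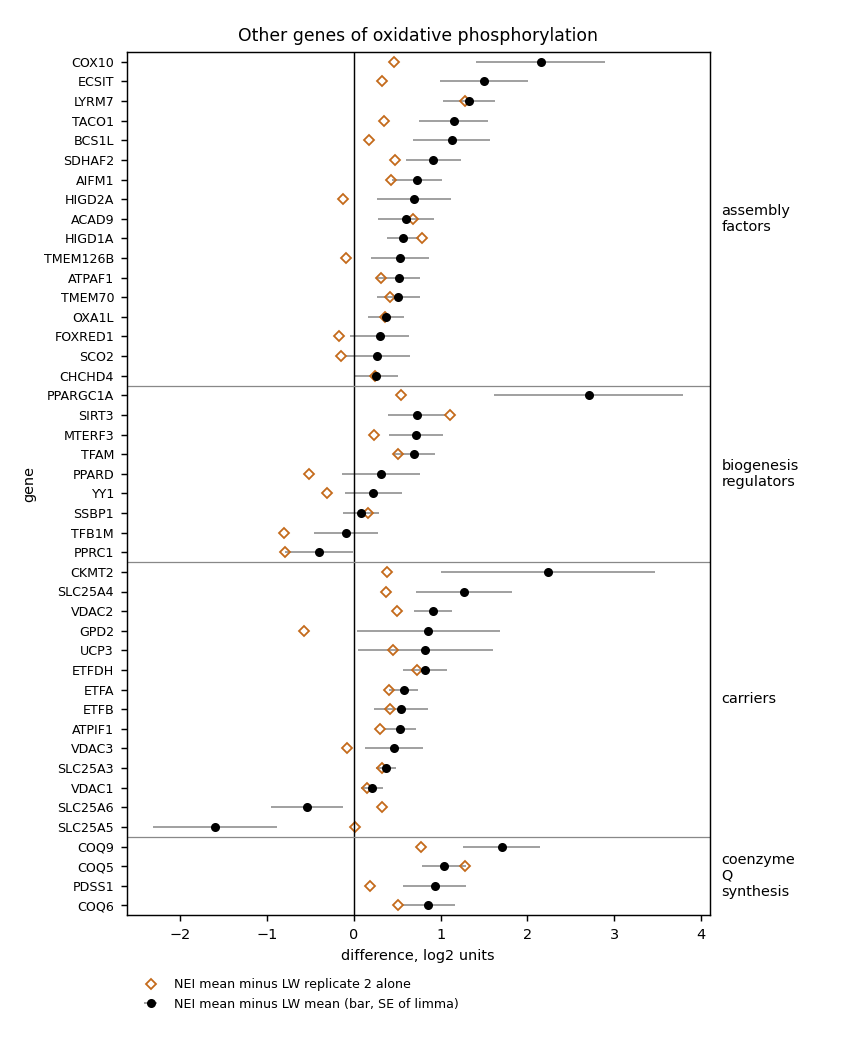
Breed difference in log2 units, Northeastern Indigenous minus Large White, of the tested genes in 4 lists that serve the respiratory chain (black points, bars are the SE of limma; open diamonds, against Large White replicate 2 alone). The black points of all 17 assembly factors and 4 coenzyme Q genes lie right of 0. Among the assembly factors, the diamonds of HIGD2A, TMEM126B, SCO2 and FOXRED1 lie left of 0 and the others right. The black point of SLC25A5 lies at -1.60.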

How the data were processed

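The deposited table holds linear intensities, and the software with which the authors made them is not given in the sources used here. Trimmed means of the 6 deposited arrays were nearly equal, so they had been scaled. Intensities were taken as log2 and quantile normalized, because array medians spanned 0.35 (limit 0.2). Of 24123 probe sets, 124 controls were left out. Gene names came from the platform annotation, and all 65 members were found by gene identifier in the RefSeq gene table. Genes of the other lists were also read by their brightest probe set alone. For example, TFAM had 4 probe sets, VDAC2 had 5, and COQ9 and COQ6 had 3 each. The other probe sets of list genes are not reported here. The dimmest 40% of probe sets, by mean log2, were left out and the rest tested with limma 3.58.1 in R 4.3.3 (lmFit, eBayes with an intensity trend), two-sided, 4 residual degrees of freedom, all 6 arrays. The number of arrays limits the precision. Full values go, per complex, to the 4 genes of smallest p (all of complex II) and the smallest difference, to CYCS and isoform pairs, and to up to 3 genes per other list plus PPARGC1A, TFAM, SLC25A4 and CKMT2. Other members named were chosen after their values were seen. Members and lists were chosen with earlier results of these data known.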

Additional observations from a re-analysis of the deposited data

How the results depend on the processing

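Of 425 named-gene values recomputed under 17 settings, 407 kept their direction and side of the threshold and 14 gained a call, all without Large White replicate 2. The 4 that changed sign were COX8H (-0.64) and ATP5G2 (-0.31) with the adipocyte minus sarcomere score as a covariate, and COX8H (-0.14) and ATP5G2 (-0.31) without Large White replicates 1 and 3. Leaving out those 2 arrays also turned the ratio of COX7A1 to COX7A2 to -0.55 and lowered the median to 0.31 over all 65 genes, 0.31 for complex I and 0.32 for V. Large White then has 1 array, assumed to vary like the others. The covariate gave medians of 0.31 over all genes, 0.28 for complex I, 0.52 for II, 0.17 for III, 0.32 for IV and 0.28 for V. Deposited log2 values gave 0.69 for complex II, 0.71 for IV and 0.87 for V. Centring gave 1.04 over all genes, 0.83 for complex II, 1.03 for III, 0.85 for IV and 1.01 for V. Averaging the probe sets of a gene gave 62 of 65 positive differences instead of 64, with SDHB at 0.18, COX7C at 0.07 and a median of 0.34 for complex II. Moving NDUFA4 into complex IV, a choice made after seeing the data, gave 0.46 for IV. Limma called 1 probe set with centring, 1 with the covariate and 1 at adjusted p under 0.1. Leaving out single arrays gave 0 to 4421 called probe sets, 0 to 46 called genes of the 65, and medians of 0.52 to 1.2 for complex I, 0.39 to 0.49 for II, 0.31 to 0.75 for III, 0.34 to 0.54 for IV and 0.41 to 0.70 for V. The lowest for complexes I, III and V came without Large White replicate 1. The cause of these shifts was not tested. Deviations of arrays with the same replicate number in each breed had correlations of -0.02, -0.16 and -0.11. These show no shared signal by replicate number and cannot tell whether the animals were sampled in pairs. A fit with the replicate number as a block called 0 probe sets and 0 of the 65 genes. With 3 arrays per breed the precision is limited by their number.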
